A study of Mus musculus with 9 samples.

Results

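The nuclear receptor superfamily was described across 5 liver tumours of TKO mice and 4 normal mouse livers. The family was taken as 46 genes in 17 subfamilies, chosen by name with earlier results of these data known. Of these, 44 were read by at least 1 probe set that names a single gene, out of 18193 genes measured in all. Nr1h2 and Nr2e3 were not analysed here. Of the 115 probe sets of the 44 genes, the one with the highest mean over all 9 arrays stood for each gene, so a choice of probe set never used the grouping.

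The tumours were hepatocellular carcinomas of mice whose genotype label gives Rb and p130 as deleted on both alleles and p107 as +/-, while the titles call the animals triple knockout. These animals had received the Cre adenovirus Ad-Cre by intrasplenic injection 4 months before the tumours were dissected. The normal livers came from adult wild type mice without tumours, and the labels mention no virus for them. Genotype, virus and tumour state therefore differ together between the groups and cannot be told apart. The labels do not say whether each sample of a group is a different animal, and they give no sex, strain or age in weeks, so p-values measure only the spread between these samples.

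Nuclear receptors are transcription factors, most of which bind DNA through a zinc-finger domain and change activity when a small fat-soluble ligand such as a steroid, thyroid hormone, retinoid, bile acid or fatty acid binds them. Many work as heterodimers with a retinoid X receptor, and they recruit coactivators or corepressors to their target genes. In the liver they govern bile acid, lipid, glucose and drug metabolism, and several belong to the circadian clock.

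Values are log2 expression values made with RMA, on which a difference of 1 is a 2-fold change, and every difference is tumours minus livers. Groups were compared with limma across all 18193 genes, and a gene passed when its Benjamini-Hochberg adjusted p was under 0.05. Array medians lay between 6.22 and 6.27. The bacterial TrpnX controls, which read background, lay between 3.69 and 4.36. Levels of different genes are read by different probes and were not set against each other.

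The tissue label was checked against marker genes. Of 6 hepatocyte markers, 1 was lower in tumours and 5 did not pass. The lower one, Cyp2e1, read 8.77 to 12.46 in tumours and 14.86 to 15.01 in livers, a log2 difference of -4.59 (SE 0.86). Albumin (Alb) averaged 15.50 ± 0.05 in tumours and 15.42 ± 0.14 in livers (SD, n = 5 and 4). These Alb values lay at the top of the array range, which ended at 15.5, so a change could go unseen. The summed level of the 6 did not overlap, at 17.01 to 17.23 in tumours and 17.32 to 17.51 in livers. All 7 measured cell cycle markers were higher in tumours, with a median log2 difference of 6.02. Markers of other liver cells moved as well. None of the 8 macrophage markers was higher and 5 were lower in tumours, and their summed level on the log2 scale ran over 10.61 to 13.09 in tumours and over 13.09 to 14.08 in livers. Likewise 4 of 8 endothelial markers were lower, with a summed level of 10.53 to 11.53 in tumours and 12.56 to 12.90 in livers. Of 10 stellate cell and fibroblast markers 2 were higher and 3 lower, and their summed level spanned 12.41 to 14.13 in tumours and 13.35 to 13.84 in livers. None of the markers of these 3 lists averaged as low as the TrpnX controls. In such bulk samples, fewer cells of a type and less RNA per cell cannot be told apart, and the part of these shifts in the receptor results was not tested.

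The targeted genes were read as follows. Rb1 read 8.77, 9.21, 9.04, 8.76 and 9.38 in tumours 1 to 5, against 8.33, 7.69, 7.85 and 8.06 in livers 1 to 4. Rbl2, which encodes p130, read 6.77, 8.43, 7.72, 7.98 and 8.16 in tumours, against 10.02, 9.90, 9.44 and 9.84 in livers. Rbl1, which encodes p107, averaged 4.76 ± 0.08 in tumours and 4.94 ± 0.67 in livers (SD, n = 5 and 4) and did not pass. No source used here states which exons were removed, so a probe set outside them checks nothing, and the Rb1 value neither bears out nor contradicts the label.

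Most receptor genes did not pass the test. Of the 44, 12 passed (27.3%), while 33.5% of all genes did, so the receptors' share was no larger than that of the array as a whole. The 5 that were higher in tumours were Nr2f6, Thra, Rarg, Rxrb and Rara, of which Rara, Rarg and Rxrb turned lower when arrays were centred on housekeeping genes. The 7 that were lower were Nr1i3, Esr1, Rora, Rxrg, Hnf4g, Nr2f1 and Vdr. That centring moved the median difference of all genes by -0.69 and left 1 receptor higher and 31 lower. Over all genes 16.1% passed as higher and 17.4% as lower. Counts from the gene lists below are to be read beside these shares, except those with housekeeping centring. The median log2 difference was -0.11 over the receptors and -0.08 over all genes, and the median size of a difference was 0.24 and 0.27.

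**Figure D1:**
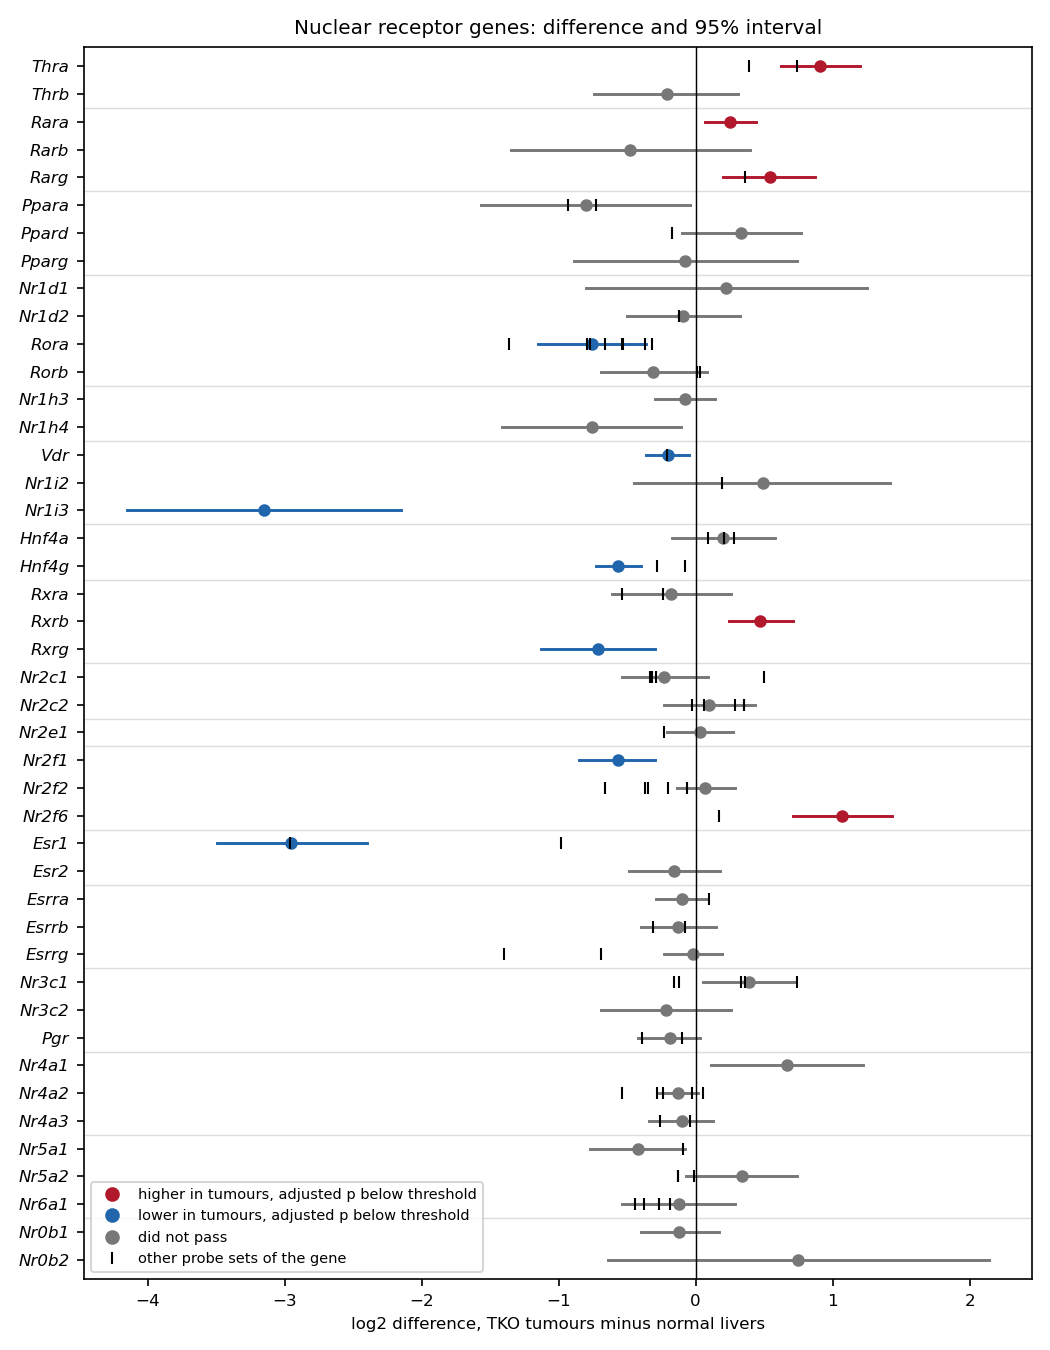
Log2 difference, tumours minus livers, of each of the 44 receptor genes (points) with its 95% interval from limma (bars), ordered by subfamily. Nr1i3 at -3.15 and Esr1 at -2.95 lie apart from the others, and Nr2f6 at 1.07 lies highest; the positive values of Rara, Rarg and Rxrb, among those that passed, turned negative with arrays centred on housekeeping genes.

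Nr1i3, Esr1 and Nr2f6 passed and differed by 2-fold or more, 3 of 44 receptors, where 10.9% of all genes did so. Nr1i3 and Esr1 were also past 4-fold, which 3.34% of all genes were. Counts of 3 and 2 are too small to be read as a trait of the family. In 11 receptors the 5 tumour values did not overlap the 4 liver values, and over all genes that share was 29.8%. Of these 11, 10 passed the test, the exception being Nr4a2, while Rara and Rarg passed although their groups overlapped.

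Because Nr1i3, Esr1 and Nr2f6 carry the largest changes, their promoters are shown, as RefSeq gives them in GRCm38.p6 from 250 bases before to 50 bases after the transcript start. Capitals mark a match to one of the motifs searched, on either strand, and 2 annotated starts are shown for Esr1. The windows are Nr1i3 at chr1:171213720-171214019 on the plus strand, Esr1 at chr10:4611739-4612038 and chr10:4709908-4710207 on the plus strand, and Nr2f6 at chr8:71381903-71382202 on the minus strand.
Nr1i3: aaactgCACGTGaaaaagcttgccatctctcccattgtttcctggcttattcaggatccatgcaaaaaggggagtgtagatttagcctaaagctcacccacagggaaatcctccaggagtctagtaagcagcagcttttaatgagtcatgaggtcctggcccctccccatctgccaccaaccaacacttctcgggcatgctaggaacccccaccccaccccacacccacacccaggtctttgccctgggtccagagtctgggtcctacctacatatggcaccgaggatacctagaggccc
Esr1 first start: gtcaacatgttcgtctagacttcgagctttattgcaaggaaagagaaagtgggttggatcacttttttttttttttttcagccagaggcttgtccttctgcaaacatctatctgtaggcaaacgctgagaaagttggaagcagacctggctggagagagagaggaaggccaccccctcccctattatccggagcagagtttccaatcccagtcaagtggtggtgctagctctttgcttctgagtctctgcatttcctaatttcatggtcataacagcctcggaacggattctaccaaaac
Esr1 other start: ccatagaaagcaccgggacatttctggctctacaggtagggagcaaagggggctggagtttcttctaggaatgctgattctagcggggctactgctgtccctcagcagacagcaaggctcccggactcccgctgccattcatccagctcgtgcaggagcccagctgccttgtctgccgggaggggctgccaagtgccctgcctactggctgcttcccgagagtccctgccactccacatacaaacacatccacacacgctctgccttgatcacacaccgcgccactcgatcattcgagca
Nr2f6: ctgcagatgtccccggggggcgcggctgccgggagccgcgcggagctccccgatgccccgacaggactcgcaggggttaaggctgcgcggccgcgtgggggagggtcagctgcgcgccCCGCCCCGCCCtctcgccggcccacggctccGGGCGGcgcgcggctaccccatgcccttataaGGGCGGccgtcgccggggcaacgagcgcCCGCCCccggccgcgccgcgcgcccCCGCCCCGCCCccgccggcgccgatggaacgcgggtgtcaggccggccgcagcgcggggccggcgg

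The 3 genes have unlike promoters. The Nr2f6 window is 82.7% G and C with 53 CpG dinucleotides, and holds 7 overlapping or separate matches to the GC box GGGCGG, read as CCGCCC on the other strand. The Nr1i3 window is 54% G and C with 3 CpG and holds 1 E-box, CACGTG, from -244 to -239. The Esr1 windows are 46.3% and 59.3% G and C, with 6 and 12 CpG, and hold none of the motifs searched. Over all 32851 promoters the medians are 52.7% and 7 CpG.

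Of the 44 receptors, 40 had an annotated promoter in the RefSeq table, 61 windows in all. The nuclear receptor half-site AGGTCA was in 12 of the 61 windows (19.7%), against 16.3% of all promoters. A direct repeat of this half-site with 1 base between the copies was in 0 of 61 and in 0.0396% of all promoters. The E-box was in 6 of 61 (9.84%) and in 7.15% of all, and the GC box in 28 of 61 (45.9%) and in 35.7% of all. The E2F site forms TTTCGCGC, TTTGGCGC and TTTCCCGC, were in none of the 61 and in 0.323%, 0.514% and 1.07% of all promoters. The AGGTCA half-site may lie inside the direct repeat. A match describes these letters in these windows and says nothing of binding.

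**Figure D2:**
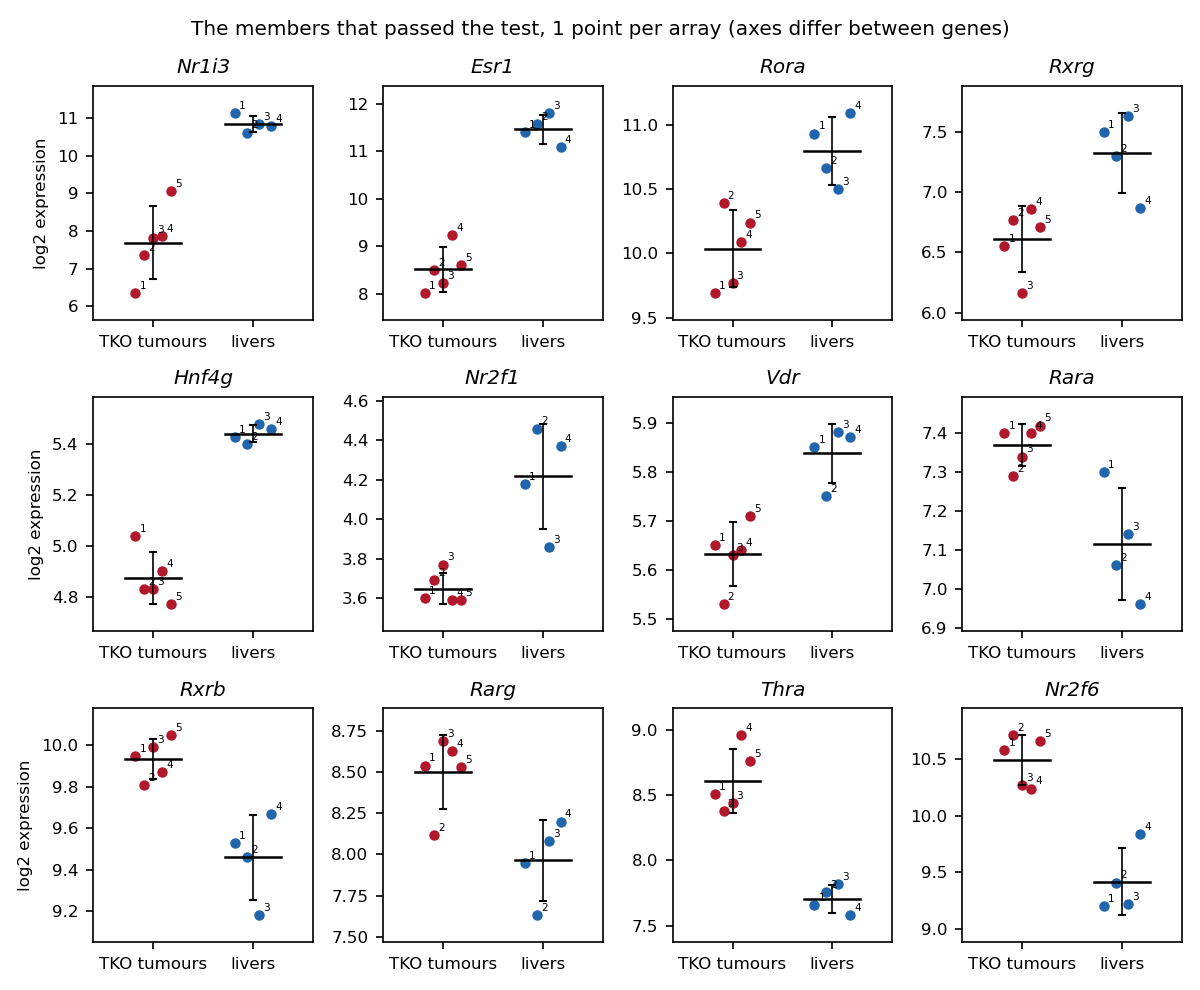
RMA log2 value of the 12 receptor genes that passed the test, 1 point per array, with tumours left and livers right in each panel; bars give the mean and SD, and the axes differ between genes. Tumours and livers do not overlap in 10 of the 12, the exceptions being Rara and Rarg, and the higher values of Rara, Rarg and Rxrb in tumours turned lower with arrays centred on housekeeping genes.

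Among the thyroid hormone receptors, Thra rose and Thrb did not pass. Thra, the alpha receptor, read 8.51, 8.38, 8.44, 8.96 and 8.76 in tumours 1 to 5, against 7.66, 7.76, 7.82 and 7.58 in livers 1 to 4. Every tumour lay above every liver, a log2 difference of 0.91 (SE 0.13, adjusted p = 0.000849 by limma), a 1.88-fold higher level, and all 3 of its probe sets passed as higher. With arrays centred on housekeeping genes the difference was 0.21 and no longer passed. Thrb, the form that predominates in liver, averaged 6.77 ± 0.47 in tumours and 6.99 ± 0.23 in livers (SD, n = 5 and 4), with a 95% interval of the difference from -0.74 to 0.31.

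The genes listed as thyroid hormone targets did not rise with Thra. Of 7 measured, 0 were higher and 2 lower, with a median log2 difference of -0.52 beside -0.08 for all genes. Thrsp, a lipogenic gene induced by thyroid hormone, read 11.75, 12, 8.47, 8.46 and 8.17 in tumours, against 12.86, 13.67, 14.38 and 14.47 in livers. Tumours 1 and 2 kept the values nearest to the livers, yet all tumours lay below all livers, with a log2 difference of -4.08 (SE 0.90, adjusted p = 0.00819 by limma). Dio1, the deiodinase that activates thyroxine, differed by -1.49 (SE 0.47, adjusted p = 0.0372), a call that was lost without tumour 1 or 3 or without any 1 of the livers, with adjusted p up to 0.0938.

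The retinoic acid receptors were modestly changed. Rarg, the gamma receptor, read 8.54, 8.12, 8.69, 8.63 and 8.53 in tumours, against 7.95, 7.63, 8.08 and 8.20 in livers. Tumour 2 was the only tumour that fell within the liver range. The log2 difference was 0.54 (SE 0.15, adjusted p = 0.022 by limma), with adjusted p = 0.0549 without liver 1 and 0.0542 without liver 2, and it was -0.16 with arrays centred on housekeeping genes. Rara, the alpha receptor, read 7.29 to 7.42 in tumours and 6.96 to 7.30 in livers, a log2 difference of 0.25 (SE 0.08, adjusted p = 0.0412 by limma). That call was lost when any 1 of tumours 1, 3, 4 and 5 or of livers 2, 3 and 4 was left out, with differences from 0.20 to 0.26 and adjusted p from 0.0662 to 0.0927, and the difference was -0.44 with housekeeping centring.

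Rarb, itself a classical retinoic acid target, read 6.78 to 8.36 in tumours and 7.64 to 9.04 in livers and did not pass (95% interval -1.35 to 0.40). Of 6 measured retinoic acid target genes 1 was higher and 2 were lower, with a median of -0.29. Tgm2, a transglutaminase, read 13.09, 13.15, 13.44, 12.68 and 12.65 in tumours, against 10.96, 11.66, 12.33 and 11.06 in livers. All tumours lay above all livers, and the log2 difference was 1.50 (SE 0.29, adjusted p = 0.00433 by limma). Cyp26b1, which breaks down retinoic acid, was lower by a log2 difference of -1.10 (SE 0.29, adjusted p = 0.0177), which no longer passed without liver 1 (-1.05) or liver 3 (-0.93).

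None of the peroxisome proliferator-activated receptors passed. Ppara, the receptor that drives fatty acid oxidation in the fasted liver, read 9.45, 10.92, 10.51, 11.34 and 10.47 in tumours, against 11.80, 11.27, 11.02 and 11.29 in livers. Tumour 4 lay within the liver range and the other 4 tumours below it, and Ppara differed by -0.80 (95% interval -1.57 to -0.04, limma adjusted p = 0.0965). Without tumour 4 the difference was -1.00 (adjusted p = 0.0374). Leaving out other single arrays gave differences up to -0.53 and adjusted p up to 0.227. Ppard read 6.09 to 6.94 in tumours and 5.99 to 6.28 in livers. Pparg, the adipogenic receptor, varied over 7.01 to 9.08 in tumours and 7.98 to 8.48 in livers, with an interval of the difference from -0.89 to 0.74.

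Genes listed as PPARα targets were changed in 1 direction where they passed: 7 of 16 were lower and 0 higher, with a median log2 difference of -0.44, beside -0.08 for all genes. Slc25a20, the mitochondrial carnitine carrier, differed by -1.29 (SE 0.13, adjusted p = 0.000132 by limma). Cpt2, the inner-membrane carnitine palmitoyltransferase, differed by -1.03 (SE 0.15, adjusted p = 0.00106). Cyp4a14, a fatty acid hydroxylase that PPARα agonists induce strongly, read 5.33, 10.38, 5.70, 9.14 and 6.52 in tumours, against 13.15, 11.20, 11.80 and 10.60 in livers. All tumours lay below all livers, with tumours 2 and 4 closest to them, and the log2 difference was -4.27 (SE 1.07, adjusted p = 0.0147). Cpt1a at -0.49, Pdk4 at -0.42 and Fgf21 at 0.81 did not pass.

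Of the clock receptors, Rora fell and the REV-ERB genes did not pass. Rora, an activator of clock genes, read 9.69, 10.39, 9.77, 10.09 and 10.24 in tumours, against 10.93, 10.66, 10.50 and 11.09 in livers. No tumour reached a liver value, and Rora differed by -0.76 (SE 0.18, adjusted p = 0.0103 by limma), a 1.69-fold lower level, and all 9 probe sets of Rora passed as lower, with differences from -1.36 to -0.32. Nr1d1, the repressor REV-ERBα, varied over 7.49 to 9.71 in tumours and 7.54 to 8.95 in livers, with an interval of the difference from -0.80 to 1.25. Nr1d2, its paralogue, averaged 11.77 ± 0.34 in tumours and 11.86 ± 0.22 in livers (SD, n = 5 and 4). Rorb differed by -0.31 (limma adjusted p = 0.189), and by -0.47 without liver 4 (adjusted p = 0.035). With other single arrays left out its difference reached -0.24 and its adjusted p 0.374.

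Of 15 other clock genes, 1 passed as higher and 3 as lower, beside 16.1% and 17.4% of all genes, and the median was -0.17. The higher one, the clock repressor Per1, differed by 0.60 (SE 0.19, adjusted p = 0.0375 by limma), lost its call without tumour 3, 4 or 5 or liver 1, 2 or 4, with adjusted p from 0.0665 to 0.104, and was -0.0962 with housekeeping centring. Cry2, a repressor of the clock, read 7.47 to 7.89 in tumours and 8.27 to 8.69 in livers, a log2 difference of -0.83 (SE 0.11, adjusted p = 0.000714 by limma). Arntl, the core activator BMAL1, read 7.16, 9.02, 6.95, 7.25 and 9.46 in tumours, against 6.81, 6.86, 6.55 and 7.62 in livers, and Dbp, a clock output gene, read 10.65, 11.25, 11.86, 12 and 9.46 in tumours, against 12.59, 12.53, 11.71 and 11.68 in livers. Neither passed (adjusted p = 0.184 and 0.121). No source used here gives the hour at which each animal was killed, and its part in the values of clock genes was not tested. Of 7 genes listed as REV-ERB and ROR targets 0 were higher and 1 lower.

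Among the liver X and bile acid receptors, neither measured member passed. Nr1h3, the oxysterol receptor LXRα, averaged 9.80 ± 0.17 in tumours and 9.88 ± 0.03 in livers (SD, n = 5 and 4), with an interval of the difference from -0.30 to 0.14. Nr1h4, the bile acid receptor FXR, read 9.76, 11.01, 9.77, 10.75 and 9.98 in tumours, against 11.10, 10.59, 11.02 and 11.33 in livers. Tumours 2 and 4 lay within the liver range and the other 3 below it, with a log2 difference of -0.76 (95% interval -1.41 to -0.11, limma adjusted p = 0.0709). It was -0.95 without tumour 2 (adjusted p = 0.0178) and -0.88 without tumour 4 (adjusted p = 0.0493). Leaving out other single arrays gave differences up to -0.64 and adjusted p up to 0.159.

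Of 12 LXR targets 0 were higher and 3 lower, with a median of -0.31. Cyp7a1, the rate-limiting enzyme of the classical pathway and a target of LXR in mice, read 6.18, 11.20, 5.56, 6.44 and 6.30 in tumours, against 12.04, 12.72, 13.64 and 11.70 in livers. Tumour 2 lay just below the lowest liver and the other 4 far below, and the log2 difference was -5.39 (SE 1.07, adjusted p = 0.0049 by limma). Of 10 FXR targets 2 were higher and 3 lower, with a median of -0.55. Slc27a5, which activates bile acids for conjugation, differed by -2.91 (SE 0.36, adjusted p = 0.000432). Slc51b, a subunit of the basolateral bile acid exporter, read 7.35 to 9.16 in tumours and 6.42 to 7.26 in livers, a difference of 1.58 (SE 0.41, adjusted p = 0.0169) that was 0.88 and did not pass with arrays centred on housekeeping genes.

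Of the xenobiotic receptors, Nr1i3 showed the largest difference of the family. Nr1i3, the constitutive androstane receptor CAR, which induces drug-metabolising enzymes, read 6.34, 7.36, 7.82, 7.87 and 9.05 in tumours 1 to 5, against 11.13, 10.61, 10.83 and 10.78 in livers 1 to 4. The highest tumour, number 5, stayed below the lowest liver, and the tumours spread more widely than the livers (7.69 ± 0.98 and 10.84 ± 0.22, SD, n = 5 and 4). The log2 difference was -3.15 (SE 0.44, adjusted p = 0.000839 by limma), an 8.87-fold lower level with a 95% interval from 4.43 to 17.8. Only 1 probe set reads the gene, so no other checks it. Nr1i2, the pregnane X receptor PXR, read 10.02, 8.52, 9.45, 10.49 and 10.20 in tumours, against 9.53, 8.42, 9.27 and 9.77 in livers. Its groups overlapped, with an interval of the difference from -0.45 to 1.42. Vdr, the vitamin D receptor, averaged 5.63 ± 0.07 in tumours and 5.84 ± 0.06 in livers, a log2 difference of -0.20 (SE 0.07, adjusted p = 0.0453) that no longer passed when any 1 tumour or liver 1, 3 or 4 was left out, with differences from -0.22 to -0.18 and adjusted p from 0.054 to 0.10.

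Of 15 genes listed as CAR and PXR targets, 1 was higher and 5 were lower, with a median log2 difference of -0.98. Cyp2c29, a cytochrome P450 that CAR induces, read 10.08, 12.84, 8.68, 12.72 and 9.32 in tumours, against 14.15, 14.14, 14.21 and 13.79 in livers. All tumours lay below all livers, with a log2 difference of -3.35 (SE 0.86, adjusted p = 0.0165 by limma). Abcc2, a canalicular export pump, differed by -1.43 (SE 0.25, adjusted p = 0.00261). Gadd45b, a stress-induced gene that CAR activators also raise, differed by 1.64 (SE 0.23, adjusted p = 0.000743). Cyp2b10, the classical CAR target, did not pass: it read 7.91, 10.03, 6.85, 8.84 and 8.54 in tumours, against 9.22, 9.23, 9.80 and 7.82 in livers. Cyp3a11, the classical PXR target, read 13.10 to 14.72 in tumours and 14.32 to 14.78 in livers and did not pass either (adjusted p = 0.405).

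Cyp2b13, whose liver expression is known to be female-predominant in mice, set 1 liver apart. It read 6.08 to 7.49 in tumours, against 12.40, 12.77, 12.86 and 6.31 in livers 1 to 4. Xist, the RNA of the inactive X chromosome, read 6.34 and 6.39 in tumours 1 and 2 and 13.07 to 13.55 in tumours 3 to 5, against 12.68 to 12.81 in livers 1 to 3 and 6.66 in liver 4. Cyp2b13 differed by -4.46 (SE 1.25, adjusted p = 0.0235 by limma), by -4.22 with the Xist level as a covariate (adjusted p = 0.0193) and by -6.05 without liver 4. Without tumour 5 or any 1 of livers 1 to 3 the call was lost, with differences from -4.33 to -3.87 and adjusted p from 0.0511 to 0.0699. Nr1i3 and Esr1 were lower in the tumours of both Xist levels.

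Of the HNF4 receptors, Hnf4g was lower on 1 of its 3 probe sets and Hnf4a did not pass. Hnf4a, which maintains the hepatocyte programme, read 12.49, 12.60, 12.49, 13.00 and 12.92 in tumours, against 12.45, 12.57, 12.12 and 12.84 in livers. The groups overlapped, none of its 4 probe sets passed, and the 95% interval of the difference ran from -0.17 to 0.58; with housekeeping centring the difference was -0.49 and did not pass. Hnf4g read 5.04, 4.83, 4.83, 4.90 and 4.77 in tumours, against 5.43, 5.40, 5.48 and 5.46 in livers. Its groups did not overlap, with a log2 difference of -0.57 (SE 0.07, adjusted p = 0.000548 by limma). These values lay above the highest TrpnX value, 4.36, but not far from it. The other probe sets of Hnf4g, at -0.08 and -0.28, did not pass. They averaged 3.78 and 3.42 in tumours and 3.87 and 3.70 in livers, below the highest TrpnX value, so they cannot check the call. A difference in change between the paralogues was not tested.

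Genes listed as HNF4A targets were lower where they passed, although Hnf4a itself did not pass. Of 15, 8 were lower and 0 higher, with a median of -0.61. Cyp8b1, a sterol hydroxylase of bile acid synthesis, read 6.13, 6.19, 7.26, 6.02 and 5.34 in tumours, against 10.94, 10.45, 11.09 and 10.99 in livers. No tumour came near the livers, and the log2 difference was -4.68 (SE 0.33, adjusted p = 1.22e-05 by limma). Pck1, the gluconeogenic enzyme and also a listed glucocorticoid receptor target, read 6.34, 8.22, 8.48, 12.74 and 9.76 in tumours, against 13.90, 13.70, 13.54 and 13.36 in livers. Tumour 4 lay nearest to the livers, and the log2 difference was -4.52 (SE 1.05, adjusted p = 0.0105). Apob, the structural protein of very low density lipoprotein, differed by -0.61 (SE 0.09, adjusted p = 0.000829). Apoc3 differed by only -0.45 (SE 0.10, adjusted p = 0.0102). The target lists share genes, among them Cyp8b1, Cyp7a1 and Pck1, so their counts are not independent.

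**Figure D3:**
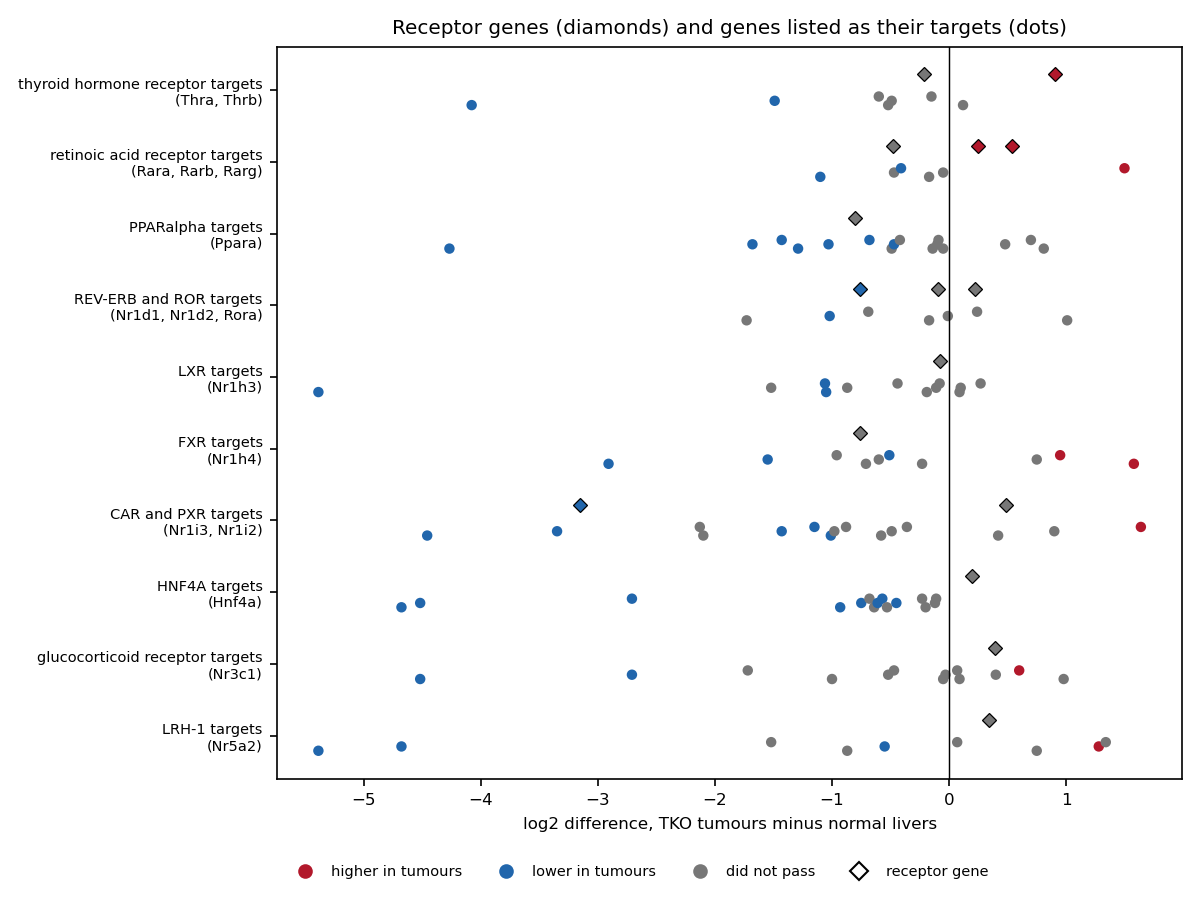
Log2 difference, tumours minus livers, of receptor genes (diamonds, named under each list) and of the genes listed as their targets (dots), 1 list per line; red passed as higher, blue as lower, grey did not pass. Hnf4a did not pass while 8 of its 15 listed targets were lower, and Nr1i3 was lower with 5 of 15 CAR and PXR targets; the diamonds of Rara and Rarg turned lower with arrays centred on housekeeping genes.

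Of the retinoid X receptors, the common heterodimer partners, Rxrb passed as higher, Rxrg as lower and Rxra not at all; differences in change between them were not tested. Rxrb read 9.95, 9.81, 9.99, 9.87 and 10.05 in tumours, against 9.53, 9.46, 9.18 and 9.67 in livers. All tumours lay above all livers, with a log2 difference of 0.47 (SE 0.11, adjusted p = 0.00862 by limma) that was -0.22 with arrays centred on housekeeping genes. Rxrg, the form best known from muscle and brain, read 6.55, 6.77, 6.16, 6.86 and 6.71 in tumours, against 7.50, 7.30, 7.63 and 6.87 in livers. The highest tumour and the lowest liver were nearly level, and the log2 difference of -0.71 (SE 0.18, adjusted p = 0.0165) was -0.66 without liver 1 (adjusted p = 0.0512). Rxra, the main hepatic form, read 10.36 to 11.16 in tumours and 10.60 to 11.11 in livers and did not pass (95% interval -0.61 to 0.26), although another of its 3 probe sets was lower, at -0.54.

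Among the orphan COUP-TF receptors Nr2f6 rose. Nr2f6, a repressor also known as EAR2, read 10.58, 10.71, 10.27, 10.24 and 10.66 in tumours, against 9.20, 9.41, 9.22 and 9.84 in livers. Every tumour lay above every liver. The log2 difference was 1.07 (SE 0.16, adjusted p = 0.00111 by limma), a 2.11-fold higher level with a 95% interval from 1.64 to 2.70, while the other probe set of the gene differed by 0.17 and did not pass. With housekeeping centring Nr2f6 still passed as higher, at 0.38. Nr2f2, which encodes COUP-TFII, averaged 8.68 ± 0.06 in tumours and 8.61 ± 0.19 in livers (SD, n = 5 and 4) and did not pass. Its direction depended on the probe set: 2 of the other 5 passed as lower, at -0.37 and -0.66, and it was also lower with arrays centred on housekeeping genes. Nr2f1, which encodes COUP-TFI, was called lower at -0.57 (SE 0.12, adjusted p = 0.00682), but averaged 3.65 ± 0.08 in tumours and 4.22 ± 0.27 in livers, both below the highest TrpnX value. The testicular receptors Nr2c1 at -0.23 and Nr2c2 at 0.10 did not pass, though another probe set of Nr2c2 passed as higher, at 0.29. Nr2e1, which encodes the neural receptor TLX, read 4.30 to 4.36 in tumours and 4.09 to 4.62 in livers, near background. Both Nr2c2 and Nr2e1 turned lower with housekeeping centring.

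Esr1 had the smallest adjusted p of the family. Esr1, the oestrogen receptor alpha, read 8.01, 8.50, 8.22, 9.23 and 8.60 in tumours 1 to 5, against 11.40, 11.57, 11.80 and 11.08 in livers 1 to 4. The highest tumour lay well below the lowest liver, with means of 8.51 ± 0.46 and 11.46 ± 0.30 (SD, n = 5 and 4). The log2 difference was -2.95 (SE 0.24, adjusted p = 3.43e-05 by limma), a 7.71-fold lower level with a 95% interval from 5.28 to 11.2. All 3 probe sets passed as lower, the others at -2.96 and -0.98. Esr2, the beta receptor, read 5.32 to 5.69 in tumours and 5.31 to 6.05 in livers and did not pass.

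The oestrogen-related receptors, which regulate mitochondrial genes without a known steroid ligand, did not pass on the probe sets used. Esrra averaged 8.85 ± 0.07 in tumours and 8.96 ± 0.14 in livers (SD, n = 5 and 4). Esrrb differed by -0.13 and Esrrg by -0.02, with intervals from -0.40 to 0.15 and from -0.23 to 0.19. Another probe set of Esrrb passed as lower, at -0.31. The other probe sets of Esrrg read otherwise, at -1.40 and -0.69, and both passed as lower, so the level of this gene depends on the probe set read.

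The remaining steroid receptors did not pass either. Nr3c1, the glucocorticoid receptor, read 10.55, 11.07, 10.53, 11.03 and 10.68 in tumours, against 10.47, 10.55, 10.12 and 10.41 in livers. The lowest tumours overlapped the highest liver, and the log2 difference was 0.39 (95% interval 0.05 to 0.72, limma adjusted p = 0.0701), while 2 of its other 5 probe sets passed as higher, at 0.74 and 0.33; with housekeeping centring it was -0.31 and did not pass. Of 13 genes listed as glucocorticoid receptor targets 1 was higher and 2 were lower, with a median of -0.05. Nr3c2, the mineralocorticoid receptor, differed by -0.22, and Pgr, the progesterone receptor, by -0.19. Another probe set of Pgr passed at -0.39, but averaged 3.90 in tumours and 4.29 in livers, both below the highest TrpnX value.

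Of the immediate-early receptors of the NR4A subfamily, Nr4a1 came nearest to passing. Nr4a1, also called NUR77, read 7.97, 7.91, 8.57, 8.93 and 8.78 in tumours, against 8.03, 7.43, 7.56 and 8.03 in livers. Tumours 1 and 2 lay within the liver range and the other 3 above it. The log2 difference was 0.67 (95% interval 0.11 to 1.22, limma adjusted p = 0.0641), and it was 0.78 without tumour 1 (adjusted p = 0.0444) and 0.80 without tumour 2 (adjusted p = 0.0283). Leaving out other single arrays gave differences down to 0.54 and adjusted p up to 0.152. With the Xist level, which was low in tumours 1 and 2, as a covariate the difference was 0.71 (adjusted p = 0.0405), and with housekeeping centring -0.03. Nr4a2 read 6.45 to 6.53 in tumours and 6.53 to 6.68 in livers and did not pass (adjusted p = 0.153), though 2 of its other 5 probe sets were lower, at -0.28 and -0.54. Nr4a3 read 7.46 to 7.76 in tumours and 7.40 to 7.81 in livers.

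In the NR5A and NR6A subfamilies no member passed. Nr5a2, the liver receptor homologue LRH-1, which drives bile acid synthesis genes, read 10.87, 11.27, 10.52, 11.43 and 10.83 in tumours, against 10.63, 10.64, 10.82 and 10.50 in livers, a difference of 0.34 (95% interval -0.07 to 0.74, limma adjusted p = 0.172). The groups overlapped, and with housekeeping centring the difference was -0.36. Of 9 genes listed as LRH-1 targets 1 was higher and 3 were lower, with a median of -0.55. Nr5a1, the adrenal and gonadal receptor SF-1, read 5.26 to 5.48 in tumours, against 6.08, 6.02, 5.95 and 5.32 in livers 1 to 4. It differed by -0.42 (limma adjusted p = 0.0589), and by -0.60 without liver 4 (adjusted p = 0.00131). With other single arrays left out its difference reached -0.34 and its adjusted p 0.152. Nr6a1, the germ cell nuclear factor, differed by -0.12, and another of its probe sets passed at -0.44.

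Neither of the receptors that lack a DNA-binding domain passed. Nr0b2, the repressor SHP that FXR induces, read 10.78, 9.65, 9.85, 11.69 and 10.80 in tumours, against 8.42, 9.77, 9.51 and 11.53 in livers. Both groups spread widely and overlapped, and the 95% interval of the difference, from -0.64 to 2.14, was the widest of the 44 receptors. Nr0b1, which encodes DAX1, averaged 4.24 ± 0.06 in tumours and 4.35 ± 0.29 in livers (SD, n = 5 and 4), below the highest TrpnX value.

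**Figure D4:**
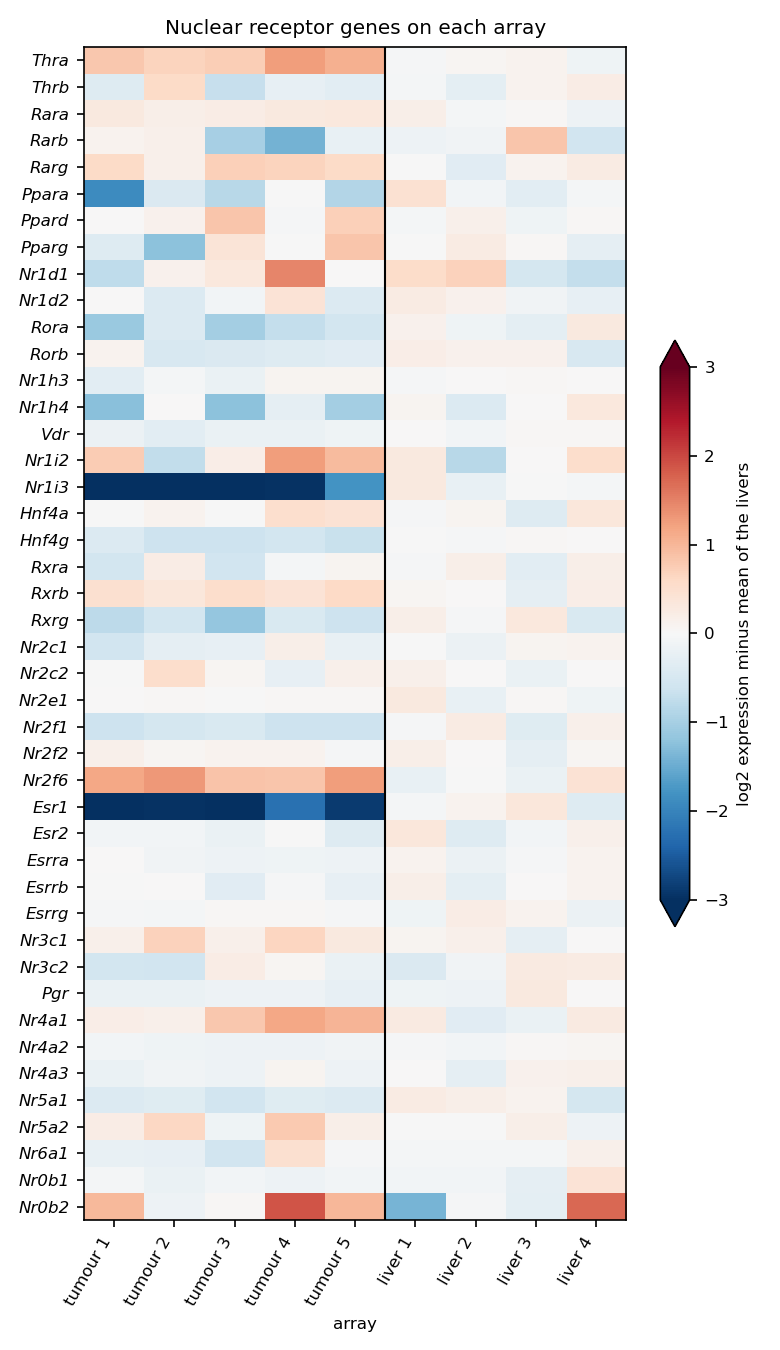
RMA log2 value of each of the 44 receptor genes on each array relative to the mean of the 4 livers, with the 5 tumours left and the 4 livers right; red is higher and blue lower, and the scale ends at 3 in either direction. Nr1i3 and Esr1 are low on all 5 tumour arrays, while Nr0b2, Nr1d1 and Nr1i2 vary among arrays of both groups.

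The calls of coregulator genes depended on the scaling. Of 12 measured corepressor genes, 6 were higher and 0 lower, with a median log2 difference of 0.37, while with arrays centred on housekeeping genes 2 were higher and 6 lower, with a median of -0.33 beside -0.78 for all genes. Gps2, a subunit of a nuclear corepressor complex, read 8.54, 8.22, 8.41, 8.72 and 8.53 in tumours, against 6.93, 6.82, 6.82 and 6.82 in livers. The groups were far apart, with a log2 difference of 1.64 (SE 0.10, adjusted p = 5.3e-06 by limma). Hdac2 differed by 1.15 (SE 0.12, adjusted p = 0.000159) and Hdac3, the deacetylase of that complex, by 0.69 (SE 0.10, adjusted p = 0.000846). Of 17 coactivator genes, 6 were higher and 1 lower, with a median of 0.08, while 1 was higher and 8 were lower with housekeeping centring. Crebbp, the acetyltransferase CBP, differed by 0.81 (SE 0.10, adjusted p = 0.000465) and Prmt1, an arginine methyltransferase, by 1.28 (SE 0.21, adjusted p = 0.00213), while Ncoa4, also an adaptor for ferritin turnover, differed by -0.67 (SE 0.09, adjusted p = 0.00077). With that centring Crebbp differed by 0.11 and no longer passed, and Hdac3 was at -0.0084, while Gps2, Hdac2 and Prmt1 still passed as higher.

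Genes that make or remove receptor ligands were mostly lower where they passed. Of 19, 1 was higher and 8 were lower, with a median log2 difference of -0.67. Cyp27a1, a sterol hydroxylase that makes oxysterols and bile acids, differed by -2.19 (SE 0.35, adjusted p = 0.00162 by limma). Hsd17b2, which oxidises oestradiol to oestrone, read 9.59 to 10.72 in tumours and 11.65 to 12.32 in livers, a difference of -1.73 (SE 0.26, adjusted p = 0.00112). Hsd17b13, a lipid droplet protein with retinol dehydrogenase activity, was the member that was higher, by 1.31 (SE 0.13, adjusted p = 0.00012). Hsd11b1, which regenerates active glucocorticoid, differed by -1.06 (SE 0.23, adjusted p = 0.00714).

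Other liver transcription factors outside the family gave 3 higher and 3 lower of 14, beside 16.1% and 17.4% of all genes, with a median of 0.14. Tbx3, a T-box repressor, read 4.66 to 5.63 in tumours and 8.04 to 8.42 in livers, a log2 difference of -3.23 (SE 0.19, adjusted p = 3.24e-06 by limma). Gata6, a zinc-finger factor of endoderm, differed by 1.46 (SE 0.12, adjusted p = 4.05e-05).

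The probe set read mattered for a part of the family. Of the 28 receptors with more than 1 probe set, 13 had probe sets whose calls differed, and 9 of the 32 receptors without a call had another probe set that passed. No such count over all genes stands beside these, so they are not read as a trait of the family. Tumours had the larger SD in 24 of 44 receptors (54.5%), beside 58% of all genes. In 3 receptors, Nr2e1, Nr2f1 and Nr0b1, both group means were below the highest TrpnX value.

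The 3′ minus 5′ signal of control probe sets was lower in tumours for Actb, while for Gapdh the difference ran the other way and did not pass. The 3′ minus 5′ log2 signal of the Actb control probe sets was 0.61 ± 0.08 in tumours and 0.96 ± 0.04 in livers (SD, n = 5 and 4; exact permutation test over all splits of the 9 arrays, two-sided p = 0.00794, the smallest it can give, and 0.0159 adjusted over 2 controls). For Gapdh it was -0.21 ± 0.03 in tumours and -0.28 ± 0.05 in livers (exact p = 0.0635). Its part in the receptor values was not tested.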

How the data were processed

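Total RNA of 5 TKO tumours and 4 normal livers was amplified with a RiboAmp kit, per the labels' protocols, and hybridised to Affymetrix arrays. The authors deposited log2 expression values for 45101 probe sets on 9 arrays, from 3.13 to 15.5. They were computed by RMA, according to the submitters' processing notes. Its version and settings, like scan batches, are not stated in any source used here. RMA commonly normalises quantiles, so an overall change of RNA amount can go unseen, and it compresses differences near background. The number of arrays limits the precision.

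Samples were grouped by title. The closest arrays, livers 1 and 2, differed by a root mean square of 0.295 log2 units, so no sample was counted as a copy. The platform annotation named 1 gene for 34945 probe sets, several for 932 and none for 9160, with 64 controls left out. Gene identifiers matched the RefSeq table of GRCm38.p6 for 34741, with 0 symbols differing. That table gave names and promoters only. Each gene was read by its probe set with the highest mean.

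limma 3.58.1 (lmFit and eBayes, two-sided, R 4.3.3) was fitted over all 18193 genes without covariates, with Benjamini-Hochberg adjustment and a threshold of 0.05; adjusted p-values of genes come from it. Single probe sets were called from the same fit over all probe sets that name 1 gene. Tested on simulated data of the same 18193 genes, it recovered 35.8% of 67 genes changed by 0.5, 76.1% of 67 changed by 1 and 95.5% of 66 changed by 2 on the log2 scale, with 10 others called. Far fewer genes were changed in that simulation than the 33.5% that passed in these data. The adjusted threshold was therefore stricter there, and the recovered shares need not hold for the real fit. Tables and figures used Python 3.11.15.

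The members, their subfamilies and the lists of targets, coregulators and markers were chosen with earlier results of these data known, and no list was tested. All 46 members were to be named, and of each other list up to 3 genes past the threshold with the smallest adjusted p in each direction, besides any clock gene and any PPARα, CAR or PXR target. Alternatives were 2 other centrings, 2 other choices of probe set, a filter on dim probe sets, a trended robust prior, Xist as a covariate, a block on replicate numbers and leaving out each array.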

Additional observations from a re-analysis of the deposited data

Results flagged for a closer look

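Within a group, 1 array stood apart from the others by Dixon's criterion in 7 of 88 groups of receptor values, where chance flags about 1 in 20 groups. Rarg read 8.12 in tumour 2, with the other tumours at 8.53 to 8.69. Rorb read 5.57 in tumour 1, with the other tumours at 4.98 to 5.14, and 4.99 in liver 4, with the other livers at 5.60 to 5.68. Esrra read 8.98 in tumour 1, with the other tumours at 8.80 to 8.85. Nr5a1 read 5.26 in tumour 3, with the other tumours at 5.44 to 5.48, and 5.32 in liver 4, with the other livers at 5.95 to 6.08. Nr6a1 read 6.98 in liver 4, with the other livers at 6.75 to 6.77. Liver 4 accounts for 3 of the 7, and it is the liver with the low Xist value, 6.66.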

How the results depend on the processing

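Nr1i3, Esr1, Rora, Hnf4g and Nr2f6 kept their direction and call under all 17 alternatives, with adjusted p up to 0.0412, and the differences nearest to 0 were -2.81, -2.30, -0.66, -0.31 and 0.38. For Nr1i3, read by 1 probe set, the 2 other choices of probe set could not change the values. No alternative read Nr2f6 by its other probe set alone, which differed by 0.17 and did not pass. Centring arrays on 11 housekeeping genes, of which 6 were themselves higher in tumours, moved the median difference of all genes by -0.69, and the 75th percentile moved it by -0.18. Housekeeping centring called 14343 genes rather than 6091, with 6.33% of calls higher rather than 48.0%, and 1 receptor higher and 31 lower rather than 5 and 7; the 75th percentile called 10346 genes (22.3% higher), 3 receptors higher and 15 lower. The mean over a gene's probe sets gave 12 receptors lower and the probe set with the largest SD gave 11. With housekeeping centring the differences turned to -0.44 (Rara), -0.16 (Rarg), -0.22 (Rxrb), -0.60 (Nr2c2), -0.67 (Nr2e1), -0.62 (Nr2f2), -0.0962 (Per1), -0.46 (Clock), -0.0084 (Hdac3) and -0.23 (Cebpb). Of the receptors without a call, Hnf4a (-0.49), Nr1d1 (-0.47), Ppard (-0.36), Nr5a2 (-0.36), Nr3c1 (-0.31), Nr1i2 (-0.21) and Nr4a1 (-0.03) also turned negative there, without passing. Nr2f2 was -0.26 with the mean of probe sets, and with the largest-SD probe set it was -0.66, Fads1 0.50 and Nfib 0.52. Leaving out 1 array gave 3 to 6 receptors higher, 5 to 8 lower and 4632 to 6361 genes. Causes of these changes were not tested beyond the construction of each alternative.

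Replicate numbers do not pair the samples: deviations of same-numbered samples correlated at -0.129, -0.067, 0.18 and -0.121. With the replicate block over numbers 1 to 4, which leaves out tumour 5, 3552 genes, 3 receptors higher and 4 lower were called. Signal over background limits Nr2f1, Nr2e1 and Nr0b1: the filter on dim probe sets leaves Nr2f1 untested, and differences near background are compressed. Hnf4g, at 4.77 to 5.04 in tumours and 5.40 to 5.48 in livers, also lay not far above the highest TrpnX value.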
